A study of Homo sapiens with 18 samples.

Results

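The genes described here are 40 direct transcriptional targets of p53 that lie outside the cell-death, CDK-inhibitor and MDM2 groups of targets. They come from a fixed list of known p53 targets, which was chosen with earlier results of these data known. A member is the row of a count table whose gene symbol equals a name on that list. All 40 were found among the 40916 symbols of each table. By the role each is best known for, 5 act in DNA repair, nucleotide supply or nucleic acid degradation, 7 in growth arrest and the cell cycle, 4 in RNA binding, the ribosome or ubiquitination, 8 in metabolism, redox balance, mitochondria or autophagy, 7 are secreted ligands or surface receptors and their partners, and 9 are membrane, adhesion, signalling or cytoskeletal proteins. Polyadenylated RNA was sequenced from 6 groups of 3 libraries, each described as a biological replicate: MCF10A, HCT116 and a 1:1 mixed culture of both, without irradiation (NIR) or after 10 Gy (IR). MCF10A is a non-tumorigenic human breast epithelial line and here carried a histone H2B-GFP fusion in every group. HCT116 comes from a human colorectal carcinoma; the cells used had no fluorescent label, and the series calls them p53-null without naming a clone or a type of p53 lesion. MCF10A was grown in F12:DMEM with 5% horse serum, EGF, hydrocortisone, cholera toxin and insulin, and HCT116 in McCoy's 5A with 10% fetal bovine serum, so line and medium cannot be told apart; the medium of the mixed culture was not given. RNA was collected 72 h after irradiation by the series' design text, while the sample titles say day 2.

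p53 is a transcription factor that DNA damage stabilises; it then binds response elements near its target genes and raises their transcription. Its targets slow the cell cycle, take part in DNA repair, change metabolism and signal to neighbouring cells, and several also have p53-independent control, for example by its relatives p63 and p73 or by stress-activated transcription factors. Ionising radiation, which breaks DNA, is a standard way to activate the pathway in epithelial cells.

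A p53 response element is built from 2 copies of a 10-letter motif, the p53 decamer, separated by 0 to 13 bases. Both strands of the RefSeq promoter windows (GRCh38.p14, 250 bases before to 50 after an annotated start) of 33 members were searched for it. A gene can have several annotated starts, and the 33 members had 48 windows. RRM2B, FBXO22, TRIM22, TP53INP1, LIF, CSF1 and PHLDA3 were not matched. A pair of decamers with both central cores intact and at most 3 mismatches in 20 letters was found in 3 of the 33 members (9.09%) and in 1510 of all 27305 genes of the promoter table (5.53%). A single decamer without mismatch was found in 6 of the 33 (18.2%) and in 2202 of all genes (8.06%). The windows of these 6 members hold the sequences below, shown because these members hold a match and their responses, given later, range from no call in either line to some of the larger rises; capitals mark the decamers.
DDB2: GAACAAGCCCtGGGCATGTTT
AEN: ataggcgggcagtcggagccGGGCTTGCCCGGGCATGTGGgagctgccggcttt
RPS27L: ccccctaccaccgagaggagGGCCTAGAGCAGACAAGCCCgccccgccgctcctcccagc
PLK2: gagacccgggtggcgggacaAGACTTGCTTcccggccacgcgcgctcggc
EPS8L2: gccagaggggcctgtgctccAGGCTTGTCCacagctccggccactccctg
FDXR: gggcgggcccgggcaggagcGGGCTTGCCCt
The DDB2 sequence (chr11:47214979-47214999, plus strand) is a pair without mismatch whose decamers are 1 base apart, beginning 5 bases downstream of an annotated start; such a pair occurred in 10 of all 27305 genes (0.0366%). The AEN pair (chr15:88621286-88621339, plus strand) has 2 mismatches and no gap and begins 34 bases upstream of the start. The RPS27L pair (chr15:63157507-63157566, minus strand) has 3 mismatches and no gap and begins 69 bases upstream. For PLK2 (chr5:58460189-58460238, minus strand), EPS8L2 (chr11:720495-720544, plus strand) and FDXR (chr17:74872995-74873025, minus strand) the match is a single decamer, at 132, 125 and 11 bases upstream. Distances are to the start of the window searched, which need not be the gene's first start. In GENCODE v29 EPS8L2 spans chr11:694438-727727, so its match lies well inside the gene. The decamers of the other members shown also lie within the GENCODE bounds of their genes. A match is a description of letters, not of binding.

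Libraries held 25737818 to 40839835 counts, and levels are given as CPM, the counts scaled to a library total of 1000000. The 10 basal mammary markers summed to 11000 to 11900 CPM in non-irradiated and 15800 to 16100 CPM in irradiated MCF10A libraries, with none at 0. In HCT116 they summed to 268 to 366 CPM, with 2 to 4 at 0, and to 440 to 498 CPM after irradiation, with 0 to 1 at 0. The 8 intestinal markers summed to 733 to 1010 and 1440 to 1680 CPM in HCT116, mostly KRT19, with CDX1 at 0. In non-irradiated HCT116, CDX2 had a mean of 10 CPM and KRT20 of 1.13 CPM. VIL1, CDH17, GPA33 and LGR5 were near 0 there, at 0.177, 0.612, 0.530 and 0.172 CPM. In MCF10A the 8 markers summed to at most 0.882 CPM. Genes expressed in a single line put the MCF10A share of RNA in the mixed cultures at 0.368% to 0.498% without irradiation. After irradiation it was 1.17% to 1.27%, so most RNA in the mixed cultures was of HCT116. Each value comes from medians over genes, with 123 genes of MCF10A without irradiation and 140 after it. The ranges are therefore over replicates and leave out the spread between genes. Fewer MCF10A cells and less RNA per MCF10A cell cannot be told apart. Mitochondrially encoded genes took 5.1% to 5.32% of counts in non-irradiated and 6.06% to 6.35% in irradiated MCF10A, and 8.42% to 8.75% and 11.5% to 12.3% in HCT116. Leaving these and the 10 most abundant genes out gave the same numbers of called members in all 3 irradiation responses. TP63, the p53 relative of basal epithelium, had a mean of 109 and 131 CPM in MCF10A and 0 and 0.033 CPM in HCT116 without and with irradiation, while TP73 had 3.66 and 1.96 CPM in MCF10A and 19.2 and 15.4 CPM in HCT116.

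Most of the 40 genes were higher in irradiated than in non-irradiated libraries in all 3 kinds of culture. Because the list was chosen with earlier results known, the shares over all genes are given as description only. In MCF10A, 29 of 40 members rose and 2 fell, where 26.2% of all 15154 genes tested rose and 29.2% fell (edgeR quasi-likelihood test, adjusted p under 0.05); the median log2 fold change was 0.49 over the members and 0 over all genes. In HCT116, the line labelled p53-null, 34 of 39 tested members rose and 2 fell, against 25.3% and 27.2% of all genes, and the median was 1.07 against 0.01. In the mixed cultures 35 of 39 rose and 2 fell, against 24.0% and 25.4%, with a median of 0.82 against 0.01. A rise of at least 2-fold was called for 3 members in MCF10A (7.13% of all genes), 20 in HCT116 (5.99%) and 16 in the mixed cultures (6.05%). The irradiated and non-irradiated libraries did not overlap for the called members, nor for 95.4%, 95.8% and 95.2% of all called genes in these 3 comparisons. Of the 39 members tested in both lines, 25 rose in both, where 11.4% of the 14091 genes tested in both did. Another 7 rose in HCT116 without a call in MCF10A (10.2% of genes), and CCNG1, CSF1 and KITLG moved in opposite directions (9.94% of genes). Beside the HCT116 response of the members, all 7 tested basal mammary markers also rose in irradiated HCT116, with a median log2 fold change of 2.76 and 5 of them at least 2-fold, and 3 of 6 tested intestinal markers rose. Of the basal markers, KRT5, KRT6A, KRT14 and KRT17 were near 0 in HCT116. Their means were 0.117, 0.213, 0.288 and 0.127 CPM before and 1.54, 1.46, 0.921 and 1.69 CPM after irradiation. COL17A1 went from 3.406 to 25.25 CPM, and the more abundant CAV1 and LAMB3 rose by 0.39 and 0.50 on the log2 scale. In MCF10A, 7 of 10 basal mammary markers rose and 1 fell. The part of these shifts in the members' response was not tested. The MCF10A and HCT116 responses share no libraries, whereas the difference between responses uses all 12.

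**Figure D1:**
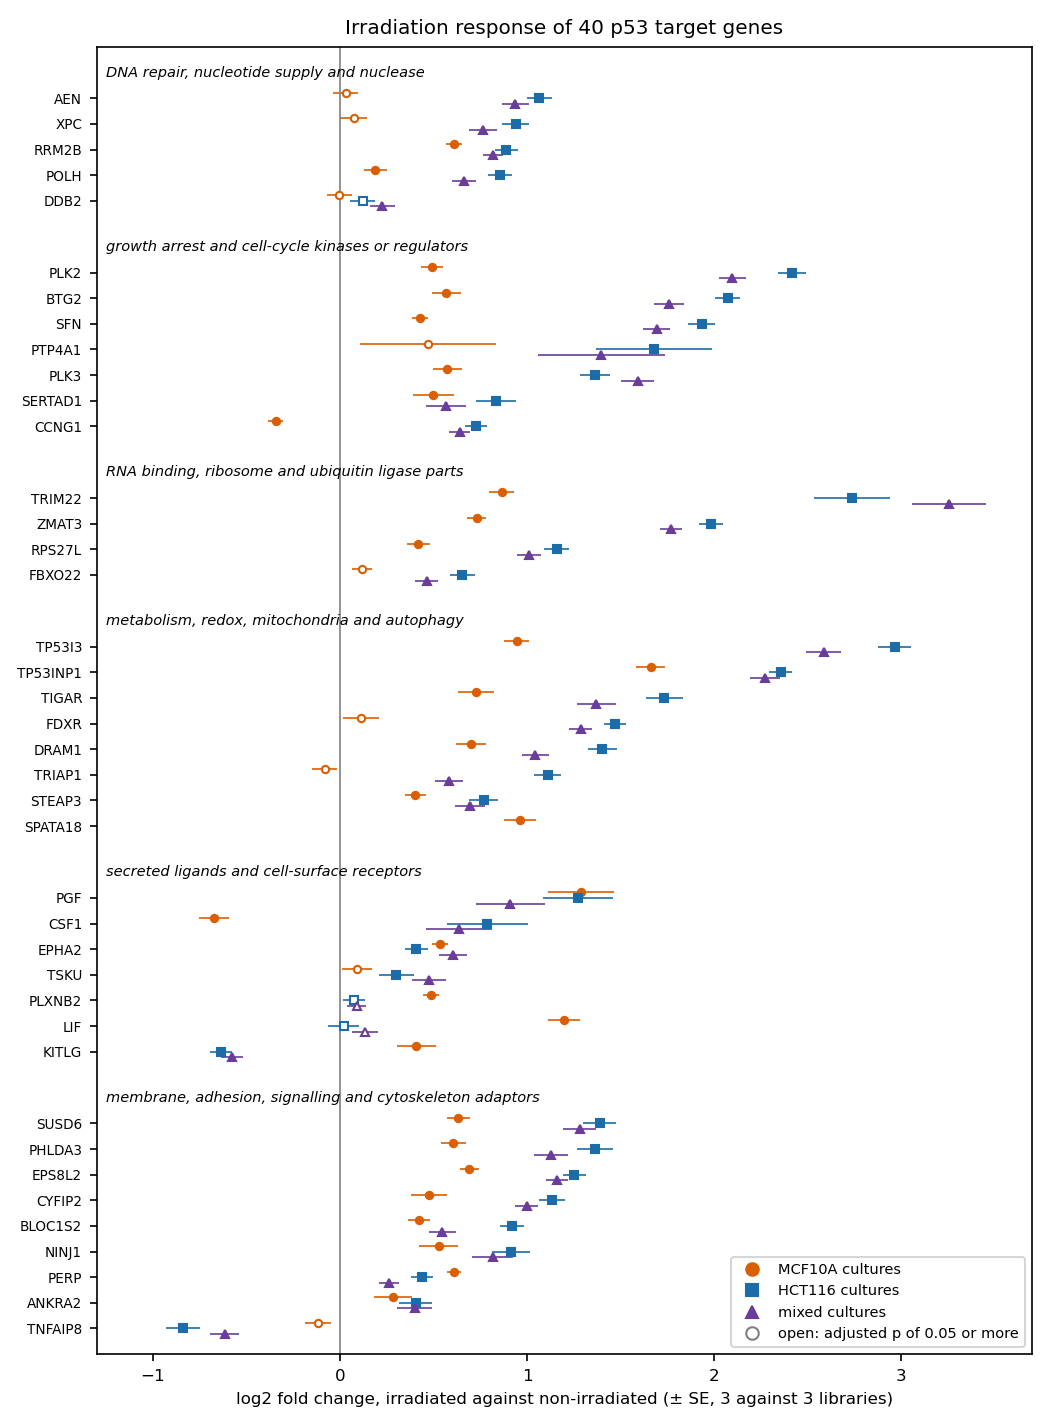
Log2 fold change of irradiated against non-irradiated cultures for the 40 members, grouped by role, with standard errors over 3 against 3 libraries; circles are MCF10A, squares HCT116 and triangles mixed cultures, and open symbols were not called. Most squares lie to the right of the circles of the same gene, with TP53I3 at 2.97 in HCT116 and 0.95 in MCF10A.

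Among the repair genes, AEN, XPC, POLH and RRM2B rose in HCT116, and POLH and RRM2B rose in MCF10A. AEN, an exonuclease that digests nucleic acids in dying cells and carries the ungapped pair shown above, was at 38.5, 40.1 and 41.4 CPM in non-irradiated and 83.8, 80.4 and 86.0 CPM in irradiated HCT116. In MCF10A its values were 44.8, 48.1 and 47.4 CPM before and 50.6, 46.9 and 48.0 CPM after. The HCT116 groups do not overlap and the MCF10A groups do, with log2 fold changes of 1.07 (SE 0.069, adjusted p = 7.5e-12) and 0.03 (SE 0.065, adjusted p = 0.71). DDB2, the damage-recognition subunit of nucleotide excision repair whose window holds the exact pair, is the member that was called in neither line. Its levels were 48.8, 43.4 and 43.9 CPM and 46.2, 45.6 and 46.0 CPM in MCF10A and 75.5, 79.0 and 80.5 CPM and 91.2, 81.2 and 81.7 CPM in HCT116. The log2 fold changes were -0.0033 (SE 0.066, adjusted p = 0.97) with a 95% interval of -0.14 to 0.13, and 0.12 (SE 0.067, adjusted p = 0.13) with an interval of -0.02 to 0.26, so a rise of 2-fold lies outside both. In the mixed cultures DDB2 went from 73.4, 68.1 and 70.6 to 88.5, 80.4 and 84.0 CPM and rose by 0.23 (SE 0.064, adjusted p = 0.0057) on the log2 scale. XPC, which recognises damage in the same repair pathway, rose by 0.94 in HCT116, and its MCF10A value of 0.07 was not called. POLH, a polymerase that copies past damaged bases, rose by 0.19 in MCF10A and 0.85 in HCT116. RRM2B, the p53-inducible small subunit of ribonucleotide reductase that supplies nucleotides, rose by 0.61 and 0.89.

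All 7 growth-arrest and cell-cycle genes rose in HCT116 and in the mixed cultures; in MCF10A 5 rose and CCNG1 fell. PLK2, a polo-like kinase induced by stress and the carrier of a single decamer shown above, was at 25.9, 30.1 and 28.5 CPM in HCT116 and 161, 145 and 142 CPM after irradiation. Its MCF10A levels were 98.6, 85.0 and 84.1 CPM and 127, 117 and 138 CPM. All irradiated libraries are above all non-irradiated ones in both lines, and the non-irradiated HCT116 libraries are lowest of the 4 groups. The log2 fold changes were 2.42 (SE 0.075, adjusted p = 2.9e-17) in HCT116 and 0.49 (SE 0.060, adjusted p = 5.7e-08) in MCF10A. BTG2, an antiproliferative cofactor of mRNA deadenylation, had 34.2, 35.6 and 36.2 CPM and 156, 146 and 142 CPM in HCT116 and 36.2, 28.9 and 33.1 CPM and 48.2, 51.1 and 48.5 CPM in MCF10A. The non-irradiated levels of the lines were close, and after irradiation every HCT116 library was above every MCF10A one, with log2 fold changes of 2.07 (SE 0.067, adjusted p = 5.2e-17) and 0.57 (SE 0.075, adjusted p = 2.6e-07). SFN, the 14-3-3 sigma protein that holds cells in G2, had 148, 168 and 179.7 CPM and 684, 610.4 and 592 CPM in HCT116. In MCF10A SFN was at 396, 411 and 376 CPM and 522, 534 and 559 CPM. It rose by 1.93 (SE 0.072, adjusted p = 7.8e-16) in HCT116 and by 0.43 (SE 0.042, adjusted p = 1.2e-09) in MCF10A, from a higher starting level in the latter. PLK3, another polo-like kinase, had 38.6, 38.9 and 43.6 CPM and 109.7, 91.3 and 109 CPM in HCT116 and 23.4, 23.4 and 23.4 CPM and 33.6, 36.0 and 36.5 CPM in MCF10A, and rose by 1.36 (SE 0.078, adjusted p = 1e-12) and 0.58 (SE 0.078, adjusted p = 3.4e-07).

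CCNG1, cyclin G1, which recruits a phosphatase to MDM2 and feeds back on p53, moved in opposite directions in the lines. In MCF10A it was at 267, 259 and 263 CPM and 208, 209 and 214 CPM, and in HCT116 at 188, 209 and 191 CPM and 318, 330.3 and 321 CPM. The non-irradiated MCF10A libraries are all above the non-irradiated HCT116 ones, and after irradiation the order is reversed. The log2 fold changes were -0.34 (SE 0.041, adjusted p = 3.8e-08) in MCF10A and 0.73 (SE 0.059, adjusted p = 3.5e-10) in HCT116, and the response difference was 1.00 (SE 0.068, adjusted p = 2.3e-11). Response differences come from 1 joint fit over the 12 libraries of both lines, with its own scaling and an all-gene median of -0.10, so they are not exact subtractions of the values of the separate fits. In the mixed cultures CCNG1 went from 159, 168 and 161 to 254, 259 and 262 CPM, a log2 fold change of 0.64. The 2 remaining genes of the role were SERTAD1, a cofactor of CDK4 and E2F, with 0.50 in MCF10A and 0.84 in HCT116, and PTP4A1, a membrane-anchored phosphatase, with 1.68 in HCT116. PTP4A1 was not called in MCF10A, its log2 value of 0.47 having a 95% interval of -0.27 to 1.22. Its counts were low, at 1.36, 0.653 and 1.01 CPM and 2.74, 3.21 and 3.77 CPM in HCT116, and 79.0% of its exonic bases lie in another gene on the same strand in GENCODE v29, so its level is uncertain.

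**Figure D2:**
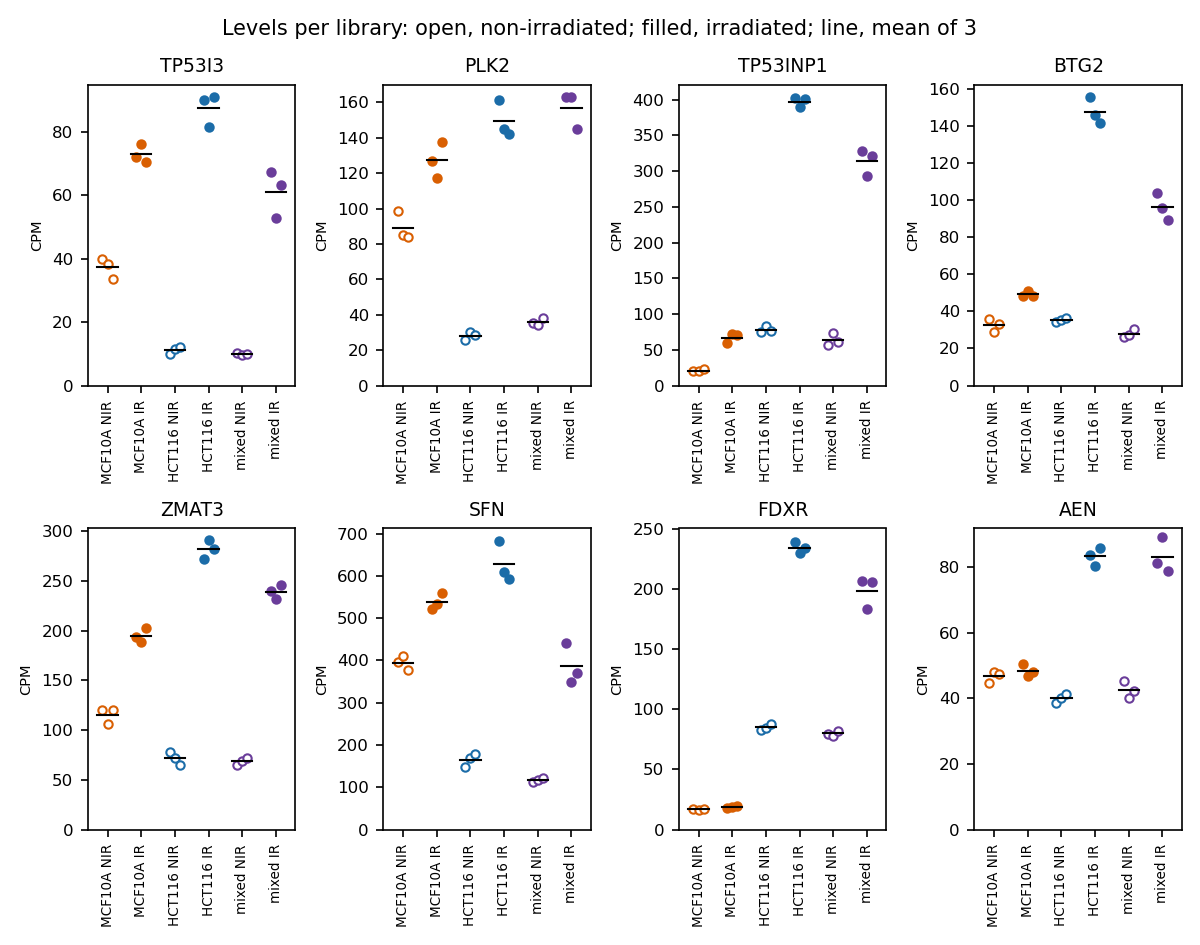
CPM in each of the 18 libraries for 8 members; open points are non-irradiated and filled points irradiated libraries, and the line is the mean of 3. The irradiated HCT116 libraries of all 8 genes are above the non-irradiated ones, while the MCF10A points of AEN overlap.

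The 4 genes of RNA and protein handling all rose in HCT116 and the mixed cultures, and 3 of them in MCF10A. ZMAT3, a zinc-finger protein that binds RNA, was at 119.8, 106 and 120.2 CPM and 193, 188 and 202 CPM in MCF10A, and at 77.6, 71.7 and 65.2 CPM and 272, 291 and 282 CPM in HCT116. The order of the lines was reversed after irradiation, with log2 fold changes of 0.73 (SE 0.049, adjusted p = 5e-13) and 1.98 (SE 0.066, adjusted p = 8.8e-17). RPS27L, a ribosomal protein paralog with 2 matching pairs in its window, had 63.1, 75.0 and 71.3 CPM and 89.1, 94.4 and 101 CPM in MCF10A and 66.1, 70.6 and 71.5 CPM and 153, 164 and 145 CPM in HCT116. It rose by 0.42 (SE 0.063, adjusted p = 1.9e-06) and 1.16 (SE 0.067, adjusted p = 1e-12), and reads shared with its near-copy RPS27 would make its level uncertain. TRIM22, an interferon-responsive ubiquitin ligase, was nearly silent in non-irradiated HCT116 at 1.91, 1.31 and 1.09 CPM and reached 9.90, 9.06 and 9.95 CPM, against 37.4, 37.6 and 35.8 CPM and 63.2, 70.7 and 71.1 CPM in MCF10A. Its log2 fold changes were 2.74 (SE 0.20, adjusted p = 8.7e-11) and 0.86 (SE 0.065, adjusted p = 5.3e-12), and 10.7% of its exonic bases are shared with a neighbouring gene on the same strand. FBXO22, the substrate receptor of an SCF ubiquitin ligase, rose by 0.65 in HCT116 and had a value of 0.12 in MCF10A that was not called.

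In the metabolic and mitochondrial role, all 7 tested genes rose in HCT116 and in the mixed cultures, and 6 of 8 rose in MCF10A. TP53I3, a quinone oxidoreductase linked to oxidative stress, had 10.1, 11.4 and 12.3 CPM in HCT116 and 89.9, 81.6 and 90.8 CPM after irradiation. In MCF10A it had 39.8, 38.2 and 33.7 CPM and 72.1, 76.1 and 70.6 CPM. The HCT116 rise of 2.97 (SE 0.088, adjusted p = 1.5e-17) on the log2 scale, 7.81-fold, is the largest of the 39 tested members, and started from a level below that of MCF10A, which rose by 0.95 (SE 0.067, adjusted p = 1.3e-12). TP53INP1, a stress protein of autophagy and p53 signalling, had 20.2, 20.03 and 22.6 CPM and 59.9, 71.6 and 70.1 CPM in MCF10A. Its HCT116 levels were 74.6, 83.2 and 76.2 CPM and 402, 389.9 and 401 CPM. Its rise was the largest of the members in MCF10A, at 1.66 (SE 0.078, adjusted p = 2e-16), and larger in HCT116, at 2.36 (SE 0.061, adjusted p = 2.6e-18). TIGAR, a phosphatase that lowers glycolytic flux, had 16.1, 12.9 and 15.2 CPM and 24.5, 25.7 and 23.8 CPM in MCF10A and 9.40, 10.2 and 9.05 CPM and 31.6, 31.3 and 32.1 CPM in HCT116. It rose in both, by 0.73 (SE 0.097, adjusted p = 3.1e-07) and 1.73 (SE 0.10, adjusted p = 1.2e-12), and 42.6% of its exonic bases are shared with another same-strand gene. DRAM1, a lysosomal membrane protein of autophagy, had 25.2, 29.5 and 25.5 CPM and 42.4, 44.1 and 45.9 CPM in MCF10A and 28.3, 34.8 and 33.8 CPM and 83.7, 84.8 and 86.4 CPM in HCT116. The groups do not overlap in either line, with log2 fold changes of 0.70 (SE 0.078, adjusted p = 1.2e-08) and 1.40 (SE 0.079, adjusted p = 7e-13).

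FDXR and TRIAP1 rose in HCT116 and were not called in MCF10A, and for both the difference between the responses was itself called. FDXR, the mitochondrial ferredoxin reductase with a decamer 11 bases upstream of an annotated start, had 82.5, 84.9 and 87.9 CPM and 239, 230.4 and 234 CPM in HCT116 and 17.1, 16.5 and 17.3 CPM and 17.7, 18.8 and 19.2 CPM in MCF10A. Its MCF10A groups are close but do not overlap, at 0.11 (SE 0.095, adjusted p = 0.33), against 1.47 (SE 0.059, adjusted p = 2.8e-15) in HCT116 and a response difference of 1.28 (SE 0.086, adjusted p = 1.5e-11) in the joint fit. TRIAP1, a mitochondrial lipid-transfer partner, had 34.1, 33.9 and 29.98 CPM and 70.4, 69.0 and 71.2 CPM in HCT116 and 42.8, 43.7 and 46.2 CPM and 41.7, 42.6 and 43.0 CPM in MCF10A. The log2 fold changes were 1.11 (SE 0.073, adjusted p = 1.3e-11) and -0.08 (SE 0.066, adjusted p = 0.31), and the joint fit gave a response difference of 1.11 (SE 0.094, adjusted p = 8.6e-10). STEAP3, a metalloreductase of iron uptake, rose by 0.40 in MCF10A and 0.77 in HCT116. SPATA18, which takes part in mitochondrial quality control, was at 22.4, 17.7 and 19.8 CPM in MCF10A and rose to 38.7, 38.1 and 41.6 CPM, a log2 fold change of 0.96 (SE 0.086, adjusted p = 1.5e-10). Its HCT116 libraries held 0, 2 and 0 counts without and 0, 7 and 2 counts with irradiation, too few for the test, and the mixed libraries 4, 3 and 4 and 17, 18 and 8 counts.

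The secreted ligands and surface receptors hold 2 of the 3 members that moved in opposite directions, and 5 of these 7 genes rose in MCF10A and 4 in HCT116. KITLG, the ligand of the receptor KIT, had 21.2, 16.6 and 16.5 CPM and 25.2, 21.2 and 26.8 CPM in MCF10A but 1484, 1639 and 1516 CPM and 905, 1004 and 1062 CPM in HCT116. Every HCT116 library is above every MCF10A library, and the lines approach each other after irradiation. KITLG rose by 0.41 (SE 0.10, adjusted p = 0.0015) in MCF10A and fell in HCT116, at -0.64 (SE 0.060, adjusted p = 4.8e-09), with a response difference of -1.12 (SE 0.11, adjusted p = 1.4e-08) in the joint fit. CSF1, the macrophage colony-stimulating factor, had 34.4, 33.2 and 32.0 CPM and 20.8, 21.5 and 21.1 CPM in MCF10A and 2.08, 3.11 and 3.29 CPM and 4.69, 5.04 and 4.78 CPM in HCT116. It shows the opposite pair of directions, at -0.67 (SE 0.080, adjusted p = 3.6e-08) and 0.79 (SE 0.21, adjusted p = 0.0036), with a response difference of 1.39 (SE 0.18, adjusted p = 1.1e-06). LIF, a cytokine of the interleukin 6 family, had 14.7, 16.8 and 16.4 CPM and 35.1, 37.6 and 38.8 CPM in MCF10A and 83.8, 102 and 114 CPM and 105, 93.9 and 103 CPM in HCT116. The MCF10A groups are well apart and the HCT116 groups overlap, at 1.20 (SE 0.086, adjusted p = 1.9e-12) and 0.02 (SE 0.085, adjusted p = 0.87); the response difference was -1.26 (SE 0.13, adjusted p = 2.1e-08). PGF, the placental growth factor, rose by nearly the same amount in both lines from low levels, 1.29 in MCF10A (3.88, 4.39 and 2.46 to 8.78, 9.59 and 8.50 CPM) and 1.27 in HCT116 (3.24, 3.73 and 5.14 to 11.7, 7.84 and 9.48 CPM). The response difference in the joint fit was -0.09 with a 95% interval of -0.69 to 0.50. EPHA2, an ephrin receptor, rose by 0.54 and 0.41, and PLXNB2, a semaphorin receptor, by 0.49 in MCF10A with an uncalled 0.08 in HCT116. TSKU, a secreted leucine-rich protein, rose by 0.30 in HCT116 and was not called in MCF10A at 0.09.

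**Figure D3:**
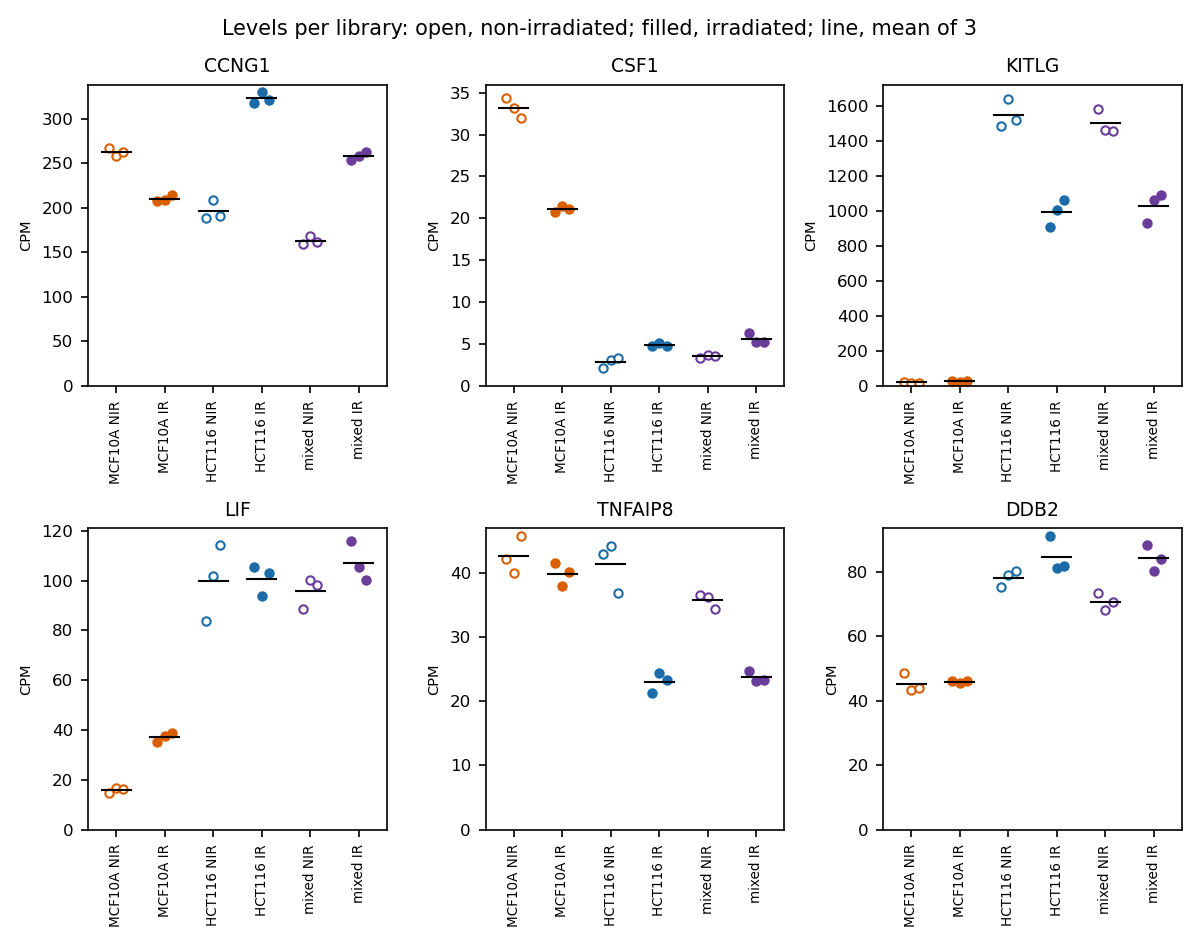
CPM in each of the 18 libraries for 6 members whose lines differ in direction or that were not called in a line; open points are non-irradiated and filled points irradiated libraries, and the line is the mean of 3. CCNG1 and CSF1 fall in MCF10A and rise in HCT116, KITLG does the reverse, and the DDB2 points of MCF10A overlap.

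Of the 9 membrane, adhesion, signalling and cytoskeletal genes, 8 rose in each kind of culture, the exception being TNFAIP8 throughout. SUSD6, a membrane protein that promotes ubiquitination of surface proteins, had 61.3, 54.9 and 62.4 CPM and 88.1, 103 and 90.2 CPM in MCF10A and 17.5, 18.8 and 20.8 CPM and 50.6, 47.8 and 50.3 CPM in HCT116. It rose by 0.63 (SE 0.063, adjusted p = 1.3e-09) and 1.39 (SE 0.088, adjusted p = 5.5e-12). PHLDA3, which competes with AKT for membrane lipids, had 65.3, 66.0 and 53.9 CPM and 92.3, 91.8 and 102 CPM in MCF10A and 15.2, 16.4 and 13.3 CPM and 39.5, 35.9 and 39.9 CPM in HCT116. The irradiated HCT116 libraries stayed below the non-irradiated MCF10A ones, although the rise was larger in HCT116, 1.37 (SE 0.096, adjusted p = 3.9e-11) against 0.61 (SE 0.066, adjusted p = 8.4e-09); 19.1% of its exonic bases are shared with another same-strand gene. EPS8L2, an adaptor of actin remodelling with a single decamer in its window, had 81.2, 74.6 and 75.4 CPM and 129, 122 and 127 CPM in MCF10A and 81.6, 85.4 and 81.9 CPM and 207, 188 and 196 CPM in HCT116, rises of 0.69 (SE 0.050, adjusted p = 2.4e-12) and 1.25 (SE 0.061, adjusted p = 5.7e-14). CYFIP2, a subunit of the WAVE complex that drives actin branching, had 14.5, 16.2 and 17.4 CPM and 22.4, 22.5 and 22.9 CPM in MCF10A. In HCT116 it had 94.5, 109 and 108 CPM and 246, 212 and 221 CPM. It rose by 0.48 (SE 0.095, adjusted p = 0.00011) and 1.13 (SE 0.070, adjusted p = 3.9e-12), so the line with the higher level also had the larger rise.

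NINJ1, which ruptures the plasma membrane of dying cells, rose by 0.53 in MCF10A and 0.92 in HCT116, and BLOC1S2, a subunit of lysosome-positioning complexes, by 0.42 and 0.92. ANKRA2, an ankyrin-repeat adaptor, rose by 0.28 and 0.41. PERP, a desmosome-associated membrane protein, rose by 0.61 in MCF10A and 0.44 in HCT116. TNFAIP8, a lipid-binding regulator of cell survival, had 42.9, 44.2 and 37.0 CPM and 21.4, 24.4 and 23.3 CPM in HCT116 and 42.2, 39.97 and 45.8 CPM and 41.6, 37.9 and 40.2 CPM in MCF10A. It fell in HCT116, at -0.84 (SE 0.091, adjusted p = 4.6e-08), and was not called in MCF10A, at -0.12 (SE 0.070, adjusted p = 0.16).

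When the irradiation responses of both lines were tested against each other, 26 of 40 members were called higher in HCT116 and 6 lower, where 15.4% of all 18179 genes were called higher and 21.9% lower; the median difference was 0.62 over the members and -0.10 over all genes. Of the 25 members that rose in both lines, 22 had the larger value in HCT116, and the difference was called higher for 19 of them and lower for PERP and EPHA2. The same shares among all 1610 genes that rose in both lines were not computed, so these counts only describe the members. The largest positive differences were those of TP53I3 (1.94, SE 0.11), PLK2 (1.85, SE 0.10) and TRIM22 (1.78, SE 0.17). The 6 negative ones were LIF, KITLG, TNFAIP8 (-0.80, SE 0.12), PLXNB2 (-0.49, SE 0.071), PERP (-0.25, SE 0.068) and EPHA2 (-0.20, SE 0.075), 4 of them ligands or receptors. Without the mitochondrially encoded and the 10 most abundant genes, the counts were 28 higher and 4 lower, the all-gene median was -0.01, and PERP (-0.15) and EPHA2 (-0.10) were no longer called. The EPHA2 call was lost in 12 of 20 alternatives and the PERP call in 7. The higher calls of RRM2B and STEAP3, with differences of 0.20 and 0.29, were lost in 5 and in 1. In HCT116 the members together took 0.404% to 0.435% of counts without and 0.629% to 0.647% with irradiation. In MCF10A they took 0.295% to 0.303% and 0.406% to 0.42%. KITLG weighs heavily on the HCT116 sums, with means of 1546 CPM without and 991 CPM with irradiation. Its MCF10A means were 18.1 and 24.4 CPM, and sums without KITLG were not computed.

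**Figure D4:**
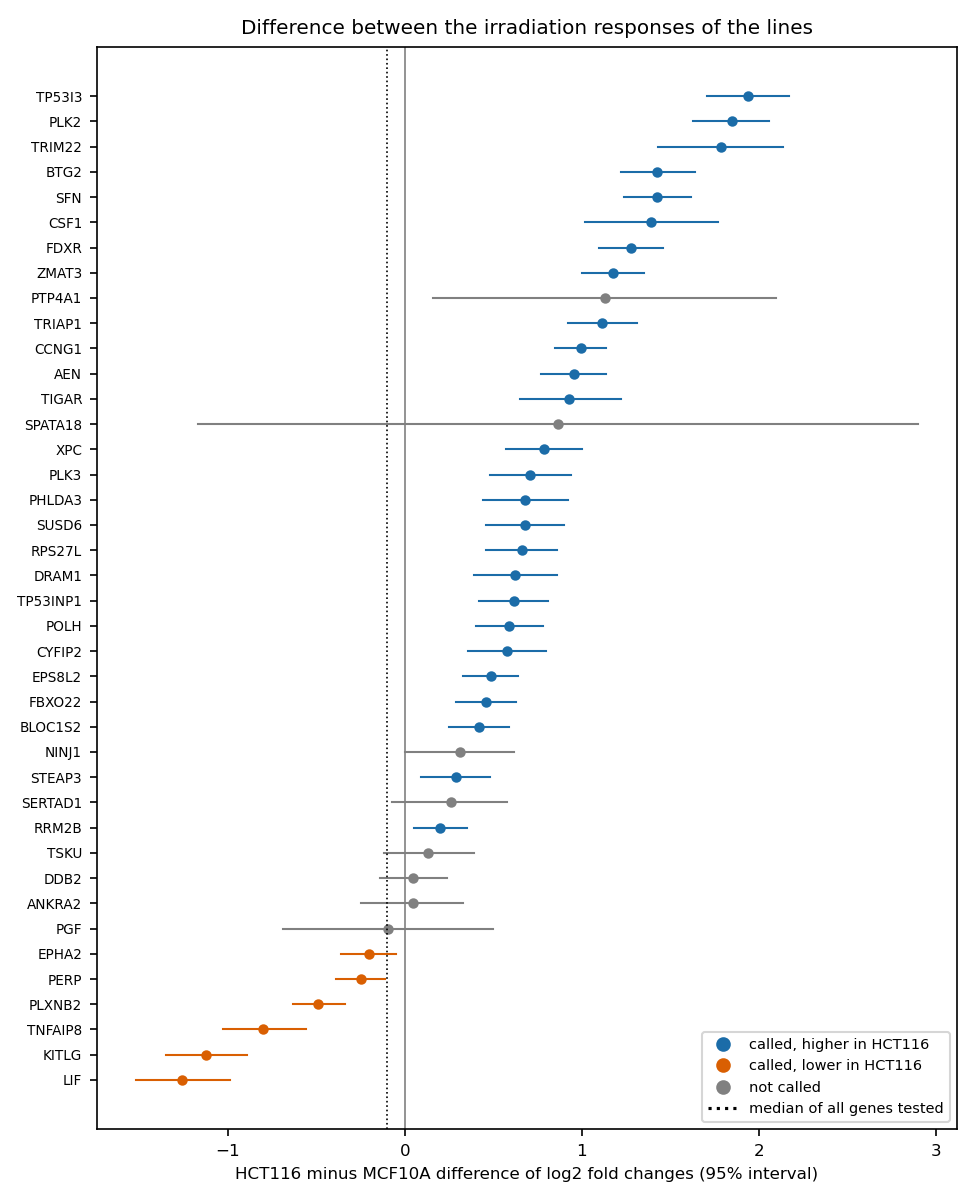
Difference of log2 fold changes, HCT116 minus MCF10A, for the 40 members in order, with 95% intervals; blue was called higher in HCT116, orange lower, grey was not called, and the dotted line is the median of all genes at -0.10. TP53I3 at 1.94 is the highest and LIF at -1.26 the lowest.

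Without irradiation, 10 of the 40 members were called higher in HCT116 than in MCF10A and 21 lower, where 38.7% of all 16568 genes were higher and 36.1% lower. With upper-quartile scaling or library size alone, which move the all-gene median from 0.05 to 0.25, the members split into 14 higher and 17 lower. The 4 RNA and protein handling genes were all called lower in HCT116. Of these, the calls of FBXO22 and TRIM22 were not followed under the alternatives, and ZMAT3 kept its call. RPS27L (-0.21) lost its call in 4 of 14 alternatives: those 2 scalings, and without MCF10A NIR replicate 2 or HCT116 NIR replicate 1. Among metabolic genes, TP53I3 (-1.93, SE 0.10) was lower and FDXR (2.13, SE 0.072) and TP53INP1 (1.70, SE 0.077) were higher. KITLG (6.22, SE 0.088), CYFIP2 (2.50, SE 0.085) and LIF (2.45, SE 0.10) had the largest positive differences, and TRIM22 (-4.86, SE 0.15), CSF1 (-3.76, SE 0.14) and PHLDA3 (-2.24, SE 0.098) were well below MCF10A, as was SPATA18 with the counts given above. BTG2 was not called different between the non-irradiated lines (log2 difference -0.09, 95% interval -0.27 to 0.10), and its responses differed by 1.43 (SE 0.10, adjusted p = 3.8e-11).

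The RNA of the mixed cultures was almost all HCT116 by the estimate above, and their 2 comparisons with HCT116 alone called few members. TP53I3 was at 10.2, 9.66 and 10.1 CPM and 67.4, 52.8 and 63.1 CPM in the mixed libraries. PLK2 was there at 35.1, 34.5 and 38.3 CPM and 163, 163 and 145 CPM. KITLG and TNFAIP8 were the 2 members that fell, by 0.58 and by 0.62 on the log2 scale. Against the HCT116 response, 0 of 39 members were called higher and 1 lower, where 0.681% and 0.149% of all 18072 genes were; at an unadjusted p under 0.05 the numbers were 0 and 11, against 7.75% and 4.82% of all genes. DESeq2 called 0 members higher and 3 lower, and 201 and 126 of all genes. The called member is TRIAP1, with 42.5, 36.9 and 36.2 CPM and 59.8, 57.1 and 59.3 CPM in the mixed cultures and a response difference of -0.52 (SE 0.10, adjusted p = 0.01). The median member difference was -0.14, against 0.02 over all genes, and for 36 of the 38 members not called the 95% interval lay within 1 log2 unit of 0, the exceptions being PTP4A1 and TRIM22. Both responses here have their own control libraries. In non-irradiated cultures, 1 of 39 members was called higher in the mixture than in HCT116 alone and 3 lower, against 0.887% and 1.15% of all genes, and all 4 are growth-arrest and cell-cycle genes. PLK2 was higher, at 0.37 (SE 0.087, adjusted p = 0.031), and lost its call when any 1 of the 6 libraries was left out. PLK3 was at 24.5, 30.8 and 26.5 CPM in the mixture, below every HCT116 library, with a log2 difference of -0.55 (SE 0.095, adjusted p = 0.003). SFN was at 113, 118 and 121 CPM and differed by -0.48 (SE 0.072, adjusted p = 0.00086), and CCNG1 by -0.25 (SE 0.062, adjusted p = 0.04), a call lost in 5 of the 6 fits without a library. With fits leaving out a library, the number called higher was 0 and the number called lower 2 to 4.

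Among 14 other p53 pathway genes, listed as CDKN1A, MDM2, MDM4, PPM1D, BAX, BBC3, PMAIP1, FAS, TNFRSF10B, SESN1, SESN2, GADD45A, GDF15 and EDA2R, 11 rose and 1 fell in MCF10A, 12 rose and 1 fell in HCT116, and 11 of 13 tested rose in the mixed cultures. Their median log2 fold changes were 0.55, 1.15 and 0.91, beside 0.49, 1.07 and 0.82 for the members tested. CDKN1A, the p21 inhibitor of cyclin-dependent kinases, rose by 1.76 (SE 0.047, adjusted p = 1.1e-21) in MCF10A and 2.33 (SE 0.075, adjusted p = 5e-17) in HCT116, and MDM2, the ubiquitin ligase of p53, by 0.98 (SE 0.042, adjusted p = 2.9e-17) and 1.41 (SE 0.059, adjusted p = 5.2e-15). For these 14 genes the response difference was called higher in HCT116 for 9 and lower for 2.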

How the data were processed

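The data are 18 tables of polyadenylated RNA counts, 3 for each of 6 groups, each library a biological replicate per the series' design text; p-values measure the spread between these cultures. Per the labels' protocols, RNA was extracted with TRIzol and libraries were made with the Illumina Stranded mRNA Prep kit. The authors deposited raw counts per gene symbol, made with fastp, STAR and featureCounts on GRCh38 per the submitters' processing notes; versions, annotation and strand setting are not given in the sources used here. Of values from 1 to 10, 68.3% were even (29871 values of 2 against 12867 of 1), and whether a read pair was counted as 1 or 2 is not given in the sources used here, so halved counts were also fitted. Totals were 25737818 to 40839835 counts per library.

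CPM were computed from the counts with the library total. The MCF10A share of RNA in mixed libraries was estimated from genes that reached 20 CPM in 1 line and stayed below 1 CPM throughout the libraries of the other line. Each comparison was fitted on its own groups with edgeR 4.0.16 in R 4.3.3 (limma 3.58.1): TMM scaling, filterByExpr with a minimum count of 10, the 2-sided quasi-likelihood test, and Benjamini-Hochberg adjustment over all genes tested, with a call at an adjusted p under 0.05. A standard error is the size of the log2 fold change divided by the square root of F, and 95% intervals use the t quantile of the fit's degrees of freedom. The fit was also run on simulated counts with few changed genes and a single fixed spread, unlike these data. No result here rests on that run. Alternatives were upper-quartile scaling, library size alone, leaving out mitochondrially encoded and the 10 most abundant genes, DESeq2 1.42.0, no filter, 1 fit over all 18 libraries, a replicate block, halved counts, and leaving out each library. Members described in full were those called with a log2 fold change of at least 1 in size and at least 10 CPM in the higher group of either line's response, those called in opposite directions and those called in neither; TRIM22, TNFAIP8, PGF, PTP4A1 and SPATA18 were added after their values were seen. The members and lists were chosen with earlier results of these data known. Replicates of a group differed by more than sampling noise in all groups (chi-square per gene of 2.39 to 7 after halving), so none was counted as a duplicate. Promoter sequences are from RefSeq (GRCh38.p14), and exon sharing from GENCODE v29. The level of 1 listed gene outside the 40 members is not reported here.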

Additional observations from a re-analysis of the deposited data

Results flagged for a closer look

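The responses of the lines to irradiation differed for 32 members by the test of the difference itself (edgeR quasi-likelihood test, adjusted p under 0.05, log2 fold change of HCT116 minus that of MCF10A), where 15.4% of all genes were called higher and 21.9% lower. Among repair genes the differences were 0.79 for XPC, 0.59 for POLH, 0.20 for RRM2B and 0.96 for AEN. In growth arrest and the cell cycle they were 1.43 for BTG2, 1.85 for PLK2, 0.71 for PLK3, 1.00 for CCNG1 and 1.43 for SFN. In RNA and protein handling they were 1.18 for ZMAT3, 0.66 for RPS27L, 0.46 for FBXO22 and 1.78 for TRIM22. The metabolic and mitochondrial genes had 0.93 for TIGAR, 1.94 for TP53I3, 1.28 for FDXR, 0.63 for DRAM1, 1.11 for TRIAP1, 0.29 for STEAP3 and 0.62 for TP53INP1. Ligands and receptors had -1.12 for KITLG, -1.26 for LIF, 1.39 for CSF1, -0.20 for EPHA2 and -0.49 for PLXNB2. The membrane and adaptor genes had -0.25 for PERP, 0.68 for PHLDA3, 0.68 for SUSD6, 0.49 for EPS8L2, 0.58 for CYFIP2, -0.80 for TNFAIP8 and 0.42 for BLOC1S2. Of 20 alternatives, the call of EPHA2 was lost in 12, that of PERP in 7, that of RRM2B in 5 and that of STEAP3 in 1. Between the mixed cultures and HCT116, the response of TRIAP1 differed by -0.52.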

How the results depend on the processing

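The numbers of members called in the 3 irradiation responses stayed within 1.5 times of the reported ones under every alternative run; leaving out each library gave 27 to 29 higher and 2 lower in MCF10A, 33 to 34 and 2 in HCT116 and 35 to 36 and 2 in the mixed cultures. Upper-quartile scaling gave 30 higher and 2 lower in MCF10A. Without each library, the ranges were 25 to 28 higher and 4 to 6 lower for the difference between the lines. For the non-irradiated lines they were 10 higher and 20 to 21 lower. Scaling moved the latter more, to 14 higher and 17 lower with upper-quartile scaling and with library size alone. For the mixed minus HCT116 response difference, members called lower numbered 3 with DESeq2, 2 with no filter, 2 with 1 fit over all 18 libraries and 1 to 2 without each library. For non-irradiated mixed cultures against HCT116, members called lower numbered 5 with DESeq2, 6 with no filter, 5 with 1 fit over all libraries and 2 to 4 without each library, and members called higher numbered 3 with 1 fit and 0 without each library. The cause was not tested. Correlations between same-numbered replicates were -0.15 to 0.19 over 15 pairs of groups, and the numbers were not taken as pairs. The highest mean correlations were 0.11 for HCT116 NIR with mixed NIR and 0.083 for HCT116 IR with mixed IR. Whether these groups share a batch was not tested. With a replicate block the non-irradiated mixed cultures had 7 members called lower than HCT116. Of all genes, 319 were then called higher and 397 lower, against 146 and 189 without the block. The other counts with the block, as reported, were 29 and 2 in MCF10A, 34 and 2 in HCT116 and 35 and 2 in the mixed cultures. For the difference between the lines they were 26 and 6. Single values under the alternatives were followed for the 22 members that met the rule for full description. The HCT116 minus MCF10A difference was followed for every called member as well. In the mixed minus HCT116 difference and both comparisons without irradiation, only called ones of the 22 were followed. The rest entered the counts alone, and upper-quartile scaling gave 37 higher in the mixed cultures. Of the 1926 values followed, 1874 kept direction and call and 40 lost the call. LIF in the mixed cultures gained it with upper-quartile scaling, at 0.17, and 11 values changed sign without being called. Those were DDB2 in MCF10A, 0.082 with upper-quartile scaling, 0.019 with library size alone, 0.012 with DESeq2, 0.012 with halved counts and -0.028 to 0.051 without each library; TRIAP1 in MCF10A, 0.0035 with upper-quartile scaling; and AEN in MCF10A, -0.0016 to 0.063 without each library. LIF in HCT116 was -0.10 without HCT116 NIR replicate 1, -0.016 without HCT116 IR replicate 1 and up to 0.13 without any other library. The DDB2 response difference was -0.0064 without MCF10A NIR replicate 1, -0.012 without HCT116 IR replicate 1 and up to 0.18 without any other library. SPATA18 had 0 to 7 counts in each HCT116 library and could not be tested there; with counts halved the HCT116 response again had 34 members called higher and 2 lower.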
